A study of Homo sapiens with 9 samples.

Results

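The expression of 10 genes that encode feedback inhibitors and receptors of the Wnt pathway was followed in 22Rv1 cells carrying different forms of PDCD4. The genes were NOTUM, RNF43, ZNRF3, AXIN2, NKD1, LGR4, LGR5, FZD1, TNFRSF19 and DKK1, and they were picked by symbol from the 60623 genes of the count and TPM tables. All 10 were listed, and 9 passed the filter on low counts, NKD1 being the exception. The list was drawn up with differences between S239D and WT in these libraries already known. Differences of S239D from WT, and from S239A, are therefore given for these genes as descriptions without p-values. S239A against WT was tested, although the WT libraries are shared with the contrast on which the genes were picked.

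22Rv1 is a human prostate carcinoma line of epithelial origin. In every group the cells' PDCD4, an inhibitor of translation initiation, had been knocked down by shRNA, and a rescue form of the gene had been added. The rescue was wild-type PDCD4 in the PDCD4-WT group (WT), the S239A variant in the PDCD4-S239A group and the S239D variant in the PDCD4-S239D group. Alanine at this residue cannot carry a phosphate and aspartate imitates one, and the study concerns phosphorylation of PDCD4 by the kinase PLK1 and resistance to the antiandrogen enzalutamide. Groups follow the genotype labels, with 3 libraries each. The vector, its promoter, the shRNA sequence and whether a line was a pool or a clone are not given in the sources used here. Cells without the rescue, or never modified, were not analysed here, so the values compare rescue forms with each other and not with unmodified cells.

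Wnt proteins are lipid-modified ligands that bind a frizzled receptor together with LRP5 or LRP6. Binding halts a cytoplasmic complex built on APC and axins that otherwise marks beta-catenin for destruction, and beta-catenin then acts with TCF and LEF factors on target genes. Several target genes encode brakes on the same pathway. NOTUM removes the lipid from Wnt ligands outside the cell, RNF43 and ZNRF3 send frizzled receptors to degradation, AXIN2 rebuilds the destruction complex, and NKD1 binds dishevelled. R-spondins, through LGR4 and LGR5, clear RNF43 and ZNRF3 from the cell surface and so strengthen the signal. DKK1 is a secreted blocker of LRP5 and LRP6. TNFRSF19, also called TROY, is a receptor of the tumour necrosis factor receptor family and a Wnt target in stem cells. In prostate tissue Wnt signals pass between stroma and epithelium.

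The libraries held 5696841 to 9688554 counts each, so that 3 counts corresponded to 0.307 to 0.527 CPM (counts scaled to library size), the lowest level read here as above zero. That limit covers counting error only. All 11 measured luminal prostate markers were above 1 TPM in every library, and their sum was 3860 to 3960 TPM in WT, 3940 to 4410 TPM in S239A and 3030 to 3090 TPM in S239D. Endothelial markers summed to at most 0.18 TPM, with CDH5 at 0. The 4 basal markers, mostly KRT15, summed to 3.17 to 4.61 TPM in WT, 3.25 to 5.01 TPM in S239A and 4.88 to 8.96 TPM in S239D. Fibroblast markers summed to 46.6 to 59 TPM in WT, 48.4 to 61.2 TPM in S239A and 27 to 37 TPM in S239D. Of this list, COL1A1 and LUM made up most, and PDGFRA, COL1A2, COL3A1 and PDGFRB were all under 1 TPM on average in each group. The mitochondrial genome gave 2.95 ± 0.11% of counts in WT (SD, n = 3), against 3.9 ± 1.3% for S239A and 5.21 ± 0.7% for S239D, and its highest shares were in S239A replicate 2 (5.38%) and S239D replicate 2 (6.01%). Within a group, pairs of libraries that included either of those 2 differed more than the other pairs. The part of these shares and of the marker levels in the results was not tested. Where leaving out both libraries changes a call or moves a member's difference between S239A and WT by over 1.5 times, that value stands beside it or at the end of its paragraph. Nothing in the labels says that replicate libraries stem from separate cultures, and p-values thus measure only a spread between samples that may be technical.

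PDCD4 transcripts were measured at 24.1, 24.9 and 20.4 CPM in WT, 19, 23.1 and 25 CPM in S239A and 16.8, 17.1 and 17 CPM in S239D. All 3 S239D libraries were below every WT library, a difference of -0.44 on the log2 scale (SE 0.13, adjusted p = 0.0164 with edgeR). The S239A libraries overlapped WT (log2 fold change -0.040, SE 0.13, adjusted p = 0.953). The S239D call was lost without WT replicate 1 (adjusted p = 0.0657) or WT replicate 2 (0.0627), and with limma on TPM values (0.411 at the largest). These counts can hold reads of both the cells' own gene and the added form. In bulk RNA, fewer expressing cells and less RNA per cell cannot be told apart, which holds for every gene below.

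On the TPM scale, which allows levels of different genes to be compared per length, RNF43 was the most abundant of the 10 genes in WT at 47.1 ± 1.2 TPM (SD, n = 3). FZD1 followed at 20.3 ± 0.97 TPM and TNFRSF19 at 13.5 ± 0.78 TPM. ZNRF3 (7.77 ± 0.7 TPM), LGR4 (6.8 ± 0.82 TPM), NOTUM (6.63 ± 0.43 TPM) and DKK1 (6.14 ± 0.48 TPM) came next, and neighbours in that order did not differ beyond their spread. AXIN2 was at 2.72 ± 0.98 TPM. LGR5 (0.757 ± 0.27 TPM) and NKD1 (0.393 ± 0.33 TPM) were lowest and did not differ beyond their spread. The order was different in S239D, where TNFRSF19 was highest at 24.8 ± 3.4 TPM, RNF43 stood at 14.4 ± 3.7 TPM and FZD1 at 13.5 ± 0.2 TPM, with RNF43 and FZD1 within their spread. There DKK1 reached 9.46 ± 0.59 TPM and NOTUM 1.39 ± 1 TPM.

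NOTUM, ZNRF3, AXIN2, NKD1 and LGR5 were missing from a RefSeq table of GRCh38.p14 promoters. The promoters of the other 5 of the 10 genes were found there, as 7 transcription starts. Those of the 4 genes among them whose S239D libraries stood furthest from WT are shown, so that the sequence in front of genes that were lower (RNF43, FZD1) can be read against that in front of genes that were higher (TNFRSF19, DKK1). They are written 5′ to 3′ on the strand of the gene, and capitals mark matches to the core of the TCF and LEF binding motif. For RNF43 and TNFRSF19 the first of 2 listed starts is shown. Each stretch ends where the gene begins in the deposited table or in GENCODE release 29, whichever comes first.
RNF43 promoter, chr17:58417596-58417784, strand -: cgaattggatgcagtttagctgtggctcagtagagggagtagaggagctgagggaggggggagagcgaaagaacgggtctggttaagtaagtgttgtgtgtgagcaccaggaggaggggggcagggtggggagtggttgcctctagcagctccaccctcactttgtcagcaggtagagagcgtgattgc
FZD1 promoter, chr7:91264183-91264363, strand +: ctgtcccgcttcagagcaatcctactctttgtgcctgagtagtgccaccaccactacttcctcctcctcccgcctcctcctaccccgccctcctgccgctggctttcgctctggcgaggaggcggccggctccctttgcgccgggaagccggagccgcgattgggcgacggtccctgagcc
TNFRSF19 promoter, chr13:23570162-23570369, strand +: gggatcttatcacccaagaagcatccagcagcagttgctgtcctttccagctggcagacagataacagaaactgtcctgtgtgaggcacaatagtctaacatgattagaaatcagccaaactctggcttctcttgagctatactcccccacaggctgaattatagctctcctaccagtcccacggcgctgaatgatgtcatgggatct
DKK1 promoter, chr10:52314031-52314280, strand +: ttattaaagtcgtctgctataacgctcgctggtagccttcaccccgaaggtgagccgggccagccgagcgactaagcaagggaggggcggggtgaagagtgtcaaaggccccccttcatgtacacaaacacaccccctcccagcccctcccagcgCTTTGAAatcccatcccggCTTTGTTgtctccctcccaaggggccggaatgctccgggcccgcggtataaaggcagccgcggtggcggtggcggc
The motif was searched in 4 spellings, CTTTGAA, besides this CTTTGAT, then the spelling CTTTGTA, and last the spelling CTTTGTT, on both strands in the 250 bases before each start. DKK1 held 2 matches, with CTTTGAA lying 95 bases and then CTTTGTT lying 76 bases before the start. The other 6 starts, those of LGR4 included, held none of these spellings in that window. Of 35116 RefSeq promoters, 12% held at least 1 match in the same length. A match describes the sequence and not a bound site. GC content in the window was 56% and 45.2% at the 2 starts of RNF43, 49.6% and 72.4% at those of TNFRSF19, 65.2% for FZD1 and 62.8% for DKK1, against a median of 58% over all promoters.

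In S239D, NOTUM and RNF43 were lower than in WT by several-fold and FZD1 by a smaller factor, while TNFRSF19 and DKK1 were higher. ZNRF3, AXIN2, LGR4 and LGR5 were not called. Thus 5 of the 9 genes passed the threshold (edgeR adjusted p under 0.05), 2 of them higher and 3 lower. Over all 16213 genes tested, 41.4% passed it in this comparison, 19.7% higher and 21.7% lower, and nothing is read from the members' count because this contrast chose them. The median log2 fold change was -0.033 for the 9 genes and 0.00075 for all genes. With limma on log2(TPM + 1), fewer genes passed over the whole table and the balance moved, from 3195 higher and 3513 lower with edgeR to 2526 higher and 1825 lower, and the same 5 members passed.

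**Figure D1:**
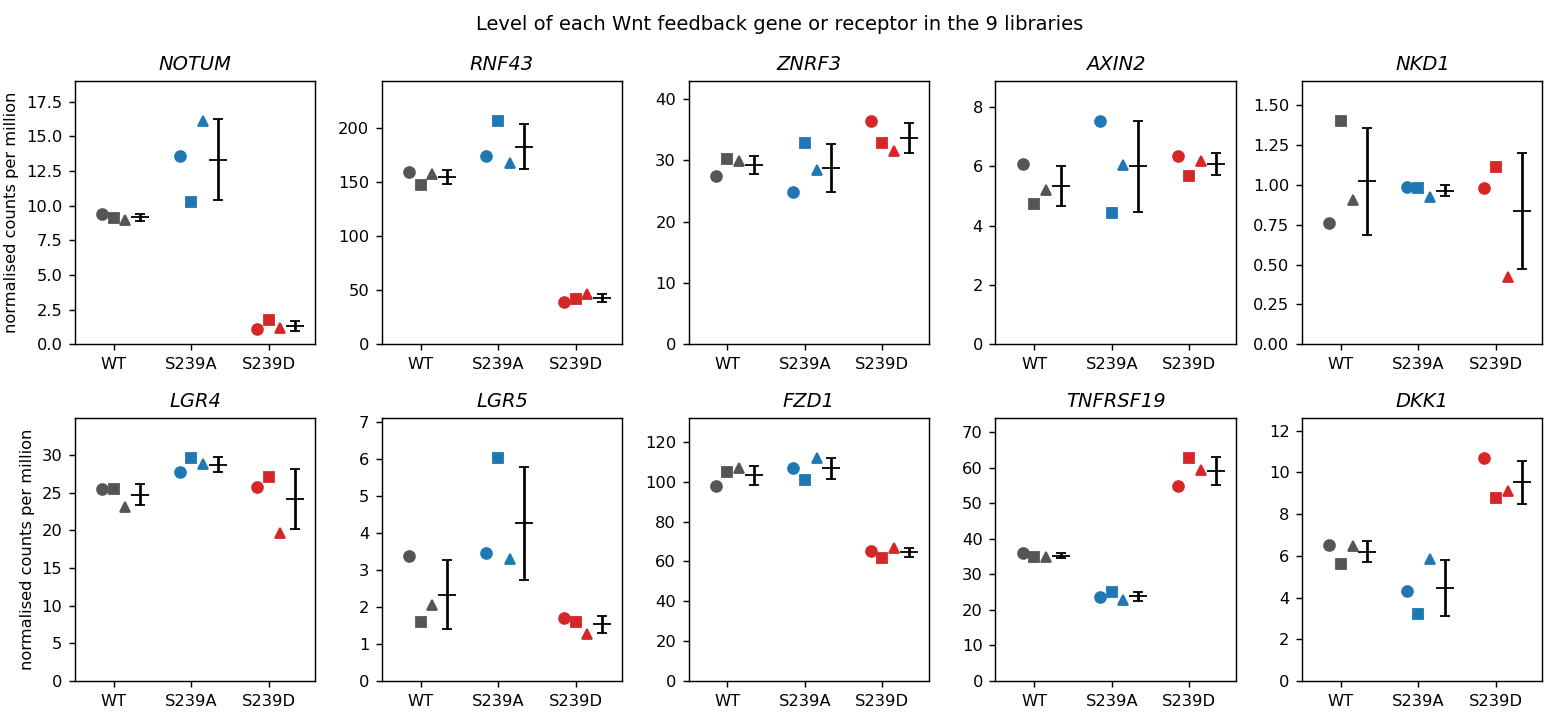
Level in normalised CPM (vertical axis, from 0) of each of the 10 genes in the WT, S239A and S239D libraries; circles, squares and triangles are replicates 1, 2 and 3, and the bar beside them gives the mean and SD of 3 libraries. NOTUM was at 1.1 to 1.73 CPM and RNF43 at 39.3 to 46.6 CPM in S239D, below every other library, and TNFRSF19 was lowest in S239A and highest in S239D.

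Among the secreted and membrane-bound brakes, NOTUM (ENSG00000185269, chromosome 17, 81952507 to 81961840, minus strand) had 9.43, 9.13 and 8.95 CPM in WT, 13.6, 10.3 and 16.1 CPM in S239A and 1.1, 1.73 and 1.15 CPM in S239D. The S239D libraries were far below all others and the S239A libraries were all above WT, with no overlap between any groups. The counts behind these values were 52 to 87 in WT, 84 to 157 in S239A and 9 to 14 in S239D, all above the 3-count limit. NOTUM was 6.88-fold lower in S239D than in WT (log2 fold change -2.78, SE 0.26, 95% interval -3.33 to -2.24). On log2(TPM + 1), which understates changes of low genes, the value was -1.76.

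RNF43 (ENSG00000108375, chromosome 17, 58352500 to 58417595, minus strand) had 159, 147 and 157 CPM in WT, 174, 206 and 167 CPM in S239A and 39.3, 41.3 and 46.6 CPM in S239D. Again the S239D libraries lay below and the S239A libraries above every WT library. RNF43 was 3.64-fold lower in S239D than in WT (log2 fold change -1.86, SE 0.1, 95% interval -2.08 to -1.64). Other annotated genes share its span, and strandedness is not given in the sources used here, so their reads and those of RNF43 may not be fully separated. TSPOAP1-AS1, an antisense RNA gene that overlaps it by 63267 bases, averaged 8.04 CPM in WT, 13.5 CPM in S239A and 1.5 CPM in S239D, and fell in S239D (log2 fold change -2.41, adjusted p = 7.7e-06). A same-strand gene without a symbol across the whole RNF43 span averaged 1.97, 6.04 and 0 CPM in the same order. SUPT4H1, which shares 594 bases at the edge, was at 42.5, 40.5 and 45.5 CPM and was not called (adjusted p = 0.422).

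ZNRF3 (ENSG00000183579, chromosome 22, 28883572 to 29057488, plus strand), the close relative of RNF43, had 27.5, 30.2 and 29.9 CPM in WT, 24.9, 32.8 and 28.5 CPM in S239A and 36.4, 32.9 and 31.6 CPM in S239D. The S239D libraries were all just above WT, by a log2 fold change of 0.20 (SE 0.12, 95% interval -0.051 to 0.46), an interval that includes no change. With limma on TPM values it was 0.03 and 0.033 at the 2 pseudocounts, and the S239D libraries (9.04, 7.22 and 7.64 TPM) overlapped those of WT (7.34, 7.38 and 8.58 TPM). The ratio of RNF43 to ZNRF3 in TPM was 5.39 to 6.6 in WT, 6.29 to 8.79 in S239A and 1.2 to 2.4 in S239D. Both ligases act on the same receptors, and RNF43 remained the more abundant transcript in every library.

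DKK1 (ENSG00000107984, chromosome 10, 52314281 to 52318042, plus strand) had 6.5, 5.62 and 6.46 CPM in WT, 4.32, 3.2 and 5.84 CPM in S239A and 10.7, 8.76 and 9.13 CPM in S239D. All S239D libraries were above all WT and S239A libraries, while S239A overlapped WT. The log2 fold change of S239D against WT was 0.61 (SE 0.21, 95% interval 0.16 to 1.06), and it passed the threshold in fits of all libraries but not when WT replicate 1, 2 or 3, S239D replicate 1 or S239D replicate 3 was left out. The ratio of NOTUM to DKK1, both secreted inhibitors, was 1.04 to 1.11 in WT, 2.13 to 2.87 in S239A and 0.076 to 0.28 in S239D in TPM.

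Of the intracellular brakes, AXIN2 (ENSG00000168646, chromosome 17, 65528563 to 65561648, minus strand) had 6.07, 4.74 and 5.21 CPM in WT, 7.53, 4.43 and 6.04 CPM in S239A and 6.37, 5.67 and 6.19 CPM in S239D, and all 3 groups overlapped. Its log2 fold change in S239D against WT was 0.17 (SE 0.22, 95% interval -0.3 to 0.65), which leaves room for changes of either sign. NKD1 (ENSG00000140807, chromosome 16, 50548396 to 50649249, plus strand) had only 7 to 8 counts in WT, 8 to 9 in S239A and 4 to 9 in S239D. A difference between groups was not detectable at this depth.

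Among the receptors, FZD1 (ENSG00000157240, chromosome 7, 91264433 to 91271326, plus strand) had 97.7, 105 and 107 CPM in WT, 107, 101 and 112 CPM in S239A and 65.2, 61.8 and 66.5 CPM in S239D. The S239D libraries lay below all others, and S239A overlapped WT. FZD1 was 1.6-fold lower in S239D than in WT (log2 fold change -0.68, SE 0.085, 95% interval -0.858 to -0.496). Summed over the 10 frizzled genes, expression was 96.7 to 97.8 TPM in WT, 94.8 to 102 TPM in S239A and 80.1 to 85.5 TPM in S239D. FZD1 made up 19.8 to 21.5% of that sum in WT, 19.4 to 22.7% in S239A and 15.8 to 17.1% in S239D. FZD6 was the most abundant frizzled gene in all 3 groups, at 26.7, 22.8 and 27.6 TPM on average.

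The R-spondin receptors differed in level and in spread. LGR4 (ENSG00000205213, chromosome 11, 27365961 to 27472790, minus strand) had 25.5, 25.5 and 23.1 CPM in WT, 27.7, 29.6 and 28.8 CPM in S239A and 25.7, 27.1 and 19.6 CPM in S239D. Its S239D libraries spread around those of WT (log2 fold change -0.033, SE 0.13), and the sign turned with TPM values (0.11 and 0.13 with pseudocounts of 1 and 0.1) and without S239D replicate 3 (0.10). LGR5 (ENSG00000139292, chromosome 12, 71439798 to 71586310, plus strand), a stem cell marker in several epithelia, had 3.36, 1.58 and 2.04 CPM in WT, 3.46, 6.02 and 3.28 CPM in S239A and 1.71, 1.6 and 1.26 CPM in S239D. These rest on 9 to 31, 28 to 49 and 12 to 14 counts, and WT and S239D overlapped (log2 fold change -0.65, SE 0.39, 95% interval -1.48 to 0.17). That value shrank to -0.28 without WT replicate 1 and to -0.20 with limma on log2(TPM + 1). The antisense neighbour TSPAN8 overlaps LGR5 by 2101 bases and averaged 51.3, 43.5 and 22.4 CPM in WT, S239A and S239D, falling in S239D (log2 fold change -1.2, adjusted p = 7.86e-07). The ratio of LGR5 to LGR4 in TPM was 0.0723 to 0.133, 0.145 to 0.206 and 0.0591 to 0.0892 in the same order.

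TNFRSF19 (ENSG00000127863, chromosome 13, 23570370 to 23676104, plus strand) had 36, 34.8 and 34.8 CPM in WT, 23.5, 25.1 and 22.8 CPM in S239A and 54.9, 62.8 and 59.4 CPM in S239D. The 3 groups were fully separated, with S239A lowest and S239D highest. TNFRSF19 was 1.68-fold higher in S239D than in WT (log2 fold change 0.75, SE 0.097, 95% interval 0.538 to 0.953).

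The comparison of S239A with WT, which did not choose the genes, gave log2 fold changes from -0.57 for TNFRSF19 to 0.82 for LGR5. NOTUM averaged 13.3 ± 2.9 CPM in S239A against 9.17 ± 0.24 CPM in WT (SD, n = 3), and TNFRSF19 averaged 23.8 ± 1.2 CPM against 35.2 ± 0.69 CPM. With edgeR none of the 9 genes passed the threshold (0 called), 4 had an unadjusted p under 0.05 (NOTUM, RNF43, LGR5 and TNFRSF19), and DESeq2 called 1, TNFRSF19. Over all genes the background was 0.00617% called with edgeR, a single gene, and 9.76% with an unadjusted p under 0.05. Of the 9, 3 were higher without overlap of libraries (NOTUM, RNF43 and LGR4) and TNFRSF19 was lower without overlap, where 9.94% and 9.55% of all genes did so.

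TNFRSF19 had a log2 fold change of -0.57 in S239A against WT (SE 0.1, 95% interval -0.784 to -0.348, lower in 3 of 3 libraries, edgeR adjusted p = 0.131). It passed the threshold with DESeq2 (-0.56, adjusted p = 0.00728), with no filter on low counts (-0.57, 0.00654) and without S239A replicate 2 and S239D replicate 2 (-0.61, 0.000823), and its adjusted p over all alternatives ranged from 0.000823 to 0.713. NOTUM had a log2 fold change of 0.54 (SE 0.19, adjusted p = 0.358, higher in 3 of 3 libraries), and without S239A replicate 2 and S239D replicate 2 it was 0.70 with an adjusted p of 0.0158, in a range of 0.0158 to 0.763. In that setting 874 genes passed over the whole table. RNF43 differed by 0.24 (SE 0.095, adjusted p = 0.449) and LGR5 by 0.82 (SE 0.34, adjusted p = 0.463). LGR4 differed by 0.22 (adjusted p = 0.603) and DKK1 by -0.47 (SE 0.23, adjusted p = 0.52). ZNRF3 (-0.021, adjusted p = 0.978), AXIN2 (0.15, 0.872) and FZD1 (0.05, 0.894) were closest to 0, and the signs of ZNRF3 and AXIN2 turned under single alternatives. Without S239A replicate 2 and S239D replicate 2 the values of genes that were still not called were 0.14 for RNF43, 0.48 for LGR5, -0.29 for DKK1, 0.32 for AXIN2, -0.12 for ZNRF3 and 0.09 for FZD1. Over the alternatives LGR5 ranged from 0.44 to 1.2 and DKK1 from -0.73 to -0.29.

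**Figure D2:**
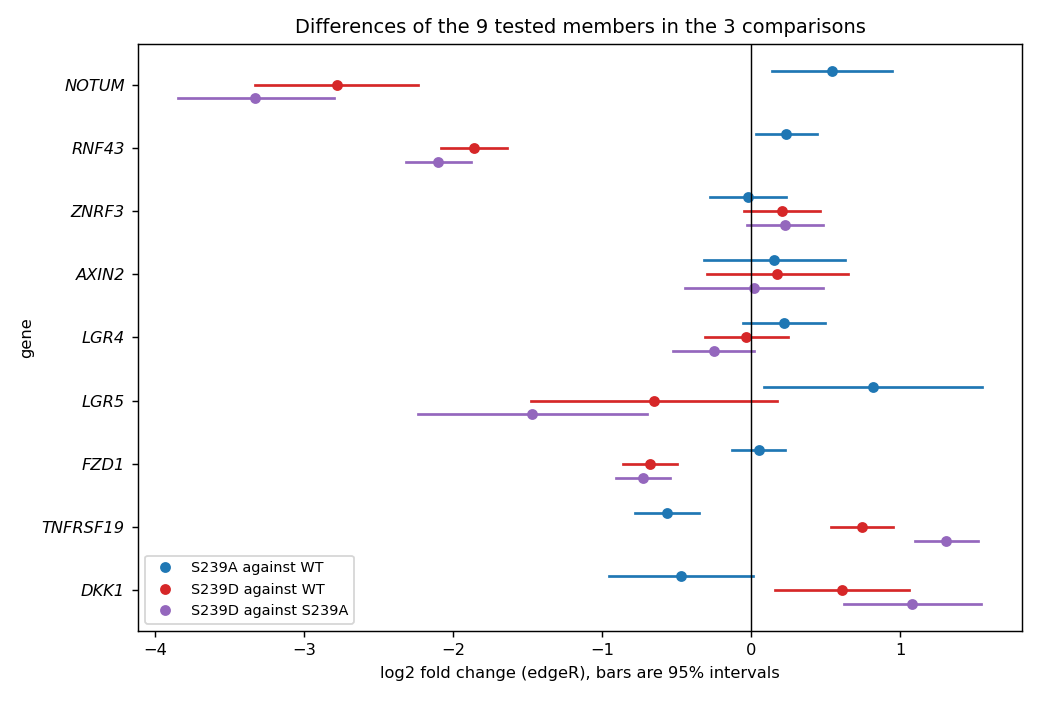
Log2 fold changes (horizontal axis, edgeR) of the 9 tested genes for S239A against WT (blue), S239D against WT (red) and S239D against S239A (purple), with 95% intervals as bars. NOTUM and RNF43 had negative values in both comparisons of S239D (-2.78 and -1.86 against WT), and the values of AXIN2, ZNRF3 and LGR4 had intervals that include 0 in all 3.

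Set directly against S239A, the S239D libraries showed the widest gaps for NOTUM (10-fold lower, log2 fold change -3.33, SE 0.24) and RNF43 (4.28-fold lower, -2.1, SE 0.1). TNFRSF19 was 2.48-fold higher (1.31, SE 0.099) and DKK1 2.11-fold higher (1.08, SE 0.21). FZD1 was 1.66-fold lower (-0.73, SE 0.084), and LGR5 was 2.77-fold lower (-1.47, SE 0.36), with all 3 S239D libraries below all 3 S239A libraries. ZNRF3 differed by 0.23 (SE 0.12), LGR4 by -0.25 (SE 0.13) and AXIN2 by 0.019 (SE 0.22). This comparison reuses the S239D libraries, so 6 of 9 past the threshold, beside 43.6% of all genes, is given as a description. LGR5 did not pass with limma on TPM values, where it was -0.64 at a pseudocount of 1, and ZNRF3 was then 0.022. LGR4 ranged from -0.34 to -0.12 over the alternatives. ZNRF3 passed without S239A replicate 2 and LGR4 without S239D replicate 2. Both passed when these 2 libraries were left out together, again as a description. In S239D against WT that setting raised the number of all genes past the threshold from 6708 to 8522.

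The other genes of the Wnt pathway were read from lists of 134 genes in 8 roles, of which 106 passed the filter. In S239D against WT 59 of them passed the threshold, 19 higher and 40 lower, which is 55.7% beside 41.4% of all genes. The lists were drawn up with earlier results of this contrast known, so neither that share, nor the balance of directions, nor the adjusted p-values below are independent evidence about the pathway. Their median log2 fold change was -0.16, beside 0.00075 over all genes. With limma on TPM values the count was 36, with 15 higher and 21 lower, and without S239A replicate 2 and S239D replicate 2 it was 67, with 26 higher and 41 lower. The calls over all genes moved too, from 6708 with edgeR to 4351 and 4284 with the 2 limma fits. Without the 2 libraries they were 8522. Limma counts by role below stand beside these lower totals and not beside 41.4%. In S239A against WT none passed (0 called with edgeR, 10 with an unadjusted p under 0.05), and without S239A replicate 2 and S239D replicate 2 there were 8, with 5 higher and 3 lower. Over all genes 1 and 874 passed in these 2 settings, and 9.76% had an unadjusted p under 0.05 with edgeR. Against S239A, 54 differed in S239D, 17 higher and 37 lower, which is 50.9% beside 43.6% of all genes.

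Of 15 tested Wnt ligand genes, 8 fell and 1 rose in S239D against WT, with a median log2 fold change of -0.92. That is 60% called, beside 41.4% of all genes, and the count moved with the settings. It was 5 (1 higher, 4 lower) with the filter of 1 CPM in 6 libraries or in the 2-group fit, and 5 (all lower) with limma on TPM values. The ligand gene WNT6 had a value in only 16 of 18 alternatives, so a smaller count can also mean that fewer ligands were tested. WNT7B, a canonical ligand of epithelia, fell from 29.8 to 15.7 CPM (log2 fold change -0.92, SE 0.13, adjusted p = 6.72e-05). WNT5A, which mainly signals without beta-catenin, fell from 10.3 to 3.87 CPM (-1.4, SE 0.21, adjusted p = 0.000113). WNT6 had 12, 6 and 11 counts in WT and 1, 0 and 0 counts in S239D, at or below the 3-count limit, and was called lower (adjusted p = 0.000947). WNT2B was the ligand that rose, from 4.5 to 9.12 CPM (1.04, SE 0.2, adjusted p = 0.000871), a call lost with limma on TPM values (0.155 at the largest). WLS, which carries Wnt proteins to the cell surface, fell from 30.9 to 18.5 CPM (-0.73, SE 0.11, adjusted p = 0.000179), also not called on TPM values (0.117 at the largest). Summed over 19 Wnt genes, expression was 49.4 to 54.1 TPM in WT, 50.2 to 55.1 TPM in S239A and 39.8 to 47.2 TPM in S239D.

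Of 13 tested receptor genes other than FZD1, 6 fell and 1 rose in S239D, with a median of -0.089. Their share called was 53.8%, beside 41.4% of all genes. With limma on TPM values 4 fell and none rose. PTK7, a pseudokinase coreceptor, fell from 80.4 to 30.5 CPM (log2 fold change -1.4, SE 0.12, adjusted p = 7.58e-07). ROR1, a receptor of WNT5A, fell from 11 to 2.95 CPM (-1.89, SE 0.2, adjusted p = 7.29e-06). FZD8 fell from 44.1 to 22.7 CPM (-0.95, SE 0.13, adjusted p = 4.25e-05) and FZD7 from 11.7 to 6.98 CPM (-0.75, SE 0.14, adjusted p = 0.000938). FZD7 was at 17.7 CPM in S239A, with all 3 libraries above WT (0.59, SE 0.13, adjusted p = 0.201, and 0.0158 without S239A replicate 2 and S239D replicate 2). FZD2 and FZD9 also fell and LRP6, the coreceptor, rose from 63.5 to 81.6 CPM (0.36, SE 0.1, adjusted p = 0.01). These 3 were named after their values were seen. Of the R-spondin genes, RSPO4 alone was high enough to test and rose from 12.7 to 20.8 CPM (0.71, SE 0.14, adjusted p = 0.000947).

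Of 9 tested secreted inhibitors and their receptors outside the 10 genes, 4 fell in S239D and none rose. That is 44.4%, near the 41.4% of all genes, and with limma on TPM values 2 were called, both lower. KREMEN1, a receptor of DKK1, fell from 23.2 to 9.81 CPM (log2 fold change -1.24, SE 0.13, adjusted p = 5.63e-06), and its relative KREMEN2 fell from 81.6 to 47.2 CPM (-0.79, SE 0.17, adjusted p = 0.00181). The KREMEN1 call was lost with limma on TPM values (-0.63, adjusted p = 0.119). WIF1, which binds Wnt ligands, fell from 9.87 to 4.01 CPM (-1.32, SE 0.22, adjusted p = 0.000318). SOSTDC1, a further secreted antagonist, fell from 2.95 to 1.5 CPM (-0.97, SE 0.35, adjusted p = 0.04), a call kept in 10 of 18 alternatives. It was lost with DESeq2 (0.0748), with both limma fits (0.0622 and 0.0651) and without WT replicate 2, WT replicate 3, S239A replicate 1, S239D replicate 1 or S239D replicate 3 (0.0517 to 0.159).

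The 26 genes of the cytoplasmic complex and of dishevelled signalling went both ways in S239D, 9 up and 5 down, with a median of 0.13. Their share called was 53.8%, beside 41.4% of all genes. CXXC4, which binds dishevelled and restrains the pathway, fell from 27.9 to 5.87 CPM (log2 fold change -2.25, SE 0.16, adjusted p = 2.13e-07), and DACT3, another dishevelled antagonist, fell from 14.2 to 5.12 CPM (-1.47, SE 0.2, adjusted p = 4.87e-05). DVL3, a dishevelled gene, rose from 197 to 337 CPM (0.77, SE 0.07, adjusted p = 1.74e-06) and AMER3 from 59.6 to 113 CPM (0.92, SE 0.1, adjusted p = 1.18e-05). CTNNB1, which encodes beta-catenin, was at 495 to 523 CPM in WT, 470 to 559 CPM in S239A and 479 to 555 CPM in S239D. Its log2 fold change in S239D against WT was -0.0056 (95% interval -0.188 to 0.177, adjusted p = 0.965), in S239A against WT -0.012 (-0.194 to 0.171, adjusted p = 0.982), and the sign of both varied with the settings.

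Of 20 nuclear factors, 4 rose and 5 fell in S239D (median -0.12), which is 45% called, near the 41.4% of all genes. The coactivators EP300 and CREBBP rose, from 101 to 201 CPM (log2 fold change 1, SE 0.099, adjusted p = 3.62e-06) and from 90.1 to 170 CPM (0.92, SE 0.11, adjusted p = 1.45e-05). HDAC1, a corepressor enzyme, fell from 408 to 275 CPM (-0.57, SE 0.078, adjusted p = 6.3e-05). LEF1, both a nuclear partner of beta-catenin and a target, fell from 68.6 to 44.2 CPM (-0.63, SE 0.088, adjusted p = 6.99e-05), a call lost on TPM values (0.125 at the largest). Of 24 tested target genes outside the 10, 13 fell and 3 rose (median -0.49), KREMEN1 and LEF1 being counted here too. The share of targets called was 66.7%, beside 41.4% of all genes. With limma on TPM values 8 targets were called, 5 lower and 3 higher. EPHB3 fell from 81.9 to 49 CPM (-0.74, SE 0.084, adjusted p = 1.22e-05) and SP8 from 6.9 to 1.86 CPM (-1.9, SE 0.26, adjusted p = 6.3e-05). The targets that rose, named after their values were seen, were CCND1 (0.28, adjusted p = 0.0153), JUN (0.43, 0.00338) and TBX3 (0.36, 0.00141).

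**Figure D3:**
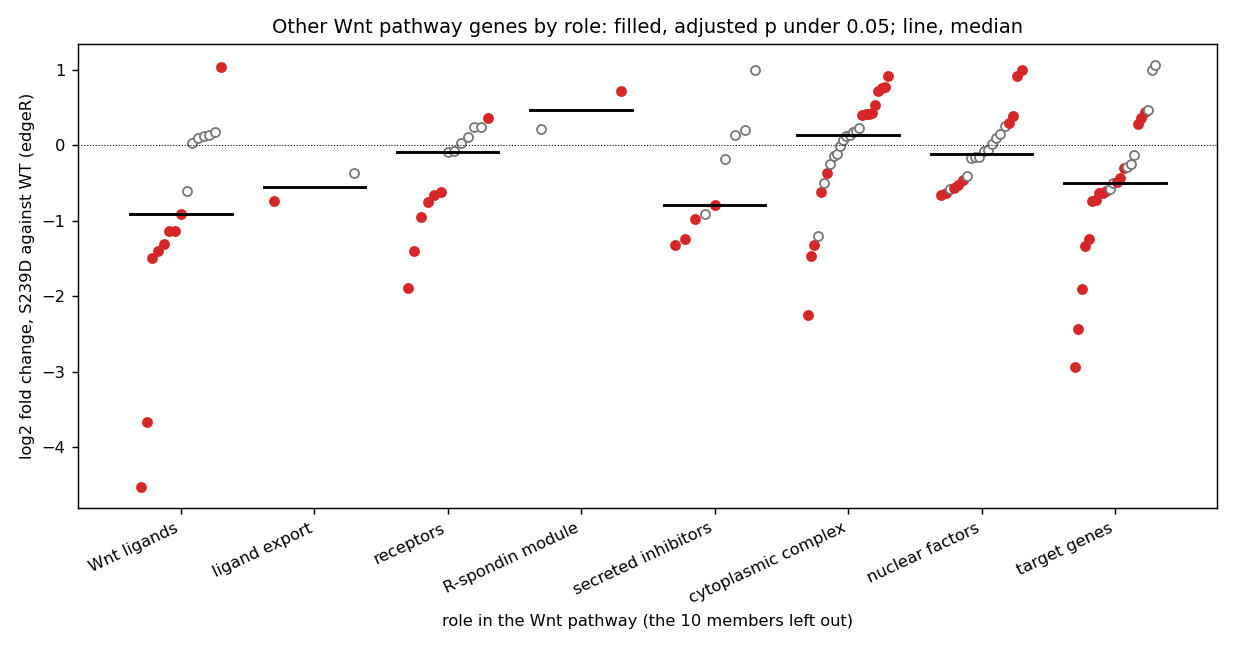
Log2 fold change of S239D against WT (vertical axis, edgeR) for the tested Wnt pathway genes outside the 10, by role; filled points passed an adjusted p under 0.05 and the bar is the median of the role. The ligands had a median of -0.92 and the cytoplasmic complex 0.13; the lowest 2 ligand points are fitted values of genes near 0 counts in S239D.

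Neighbouring genes were read as a description of the genomic surroundings. NOTUM lies among genes whose median log2 fold change in S239D against WT was 0.15 (10 tested genes on either side, 8 higher and 3 lower), with a lowest neighbour at -0.76 against -2.78 for NOTUM. The 20 neighbours of RNF43 had a median of -0.042, with 2 higher and 4 lower, and the lower ones included TSPOAP1-AS1 and the overlapping gene without a symbol. FZD1 had neighbours with a median of 0.057 and a lowest value of -0.5, against -0.68 for FZD1 itself. TNFRSF19 (0.75) lay within the range of its neighbours, -1.59 to 1.54 with a median of -0.1, and DKK1 (0.61) within -2.35 to 1.96 with a median of -0.34. The neighbours of LGR4 were lower, at a median of -0.56 with 10 of 20 called lower, while LGR4 was at -0.033. Chromosome 17, which holds NOTUM, RNF43 and AXIN2, had a median of 0.034 over 1012 genes.

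**Figure D4:**
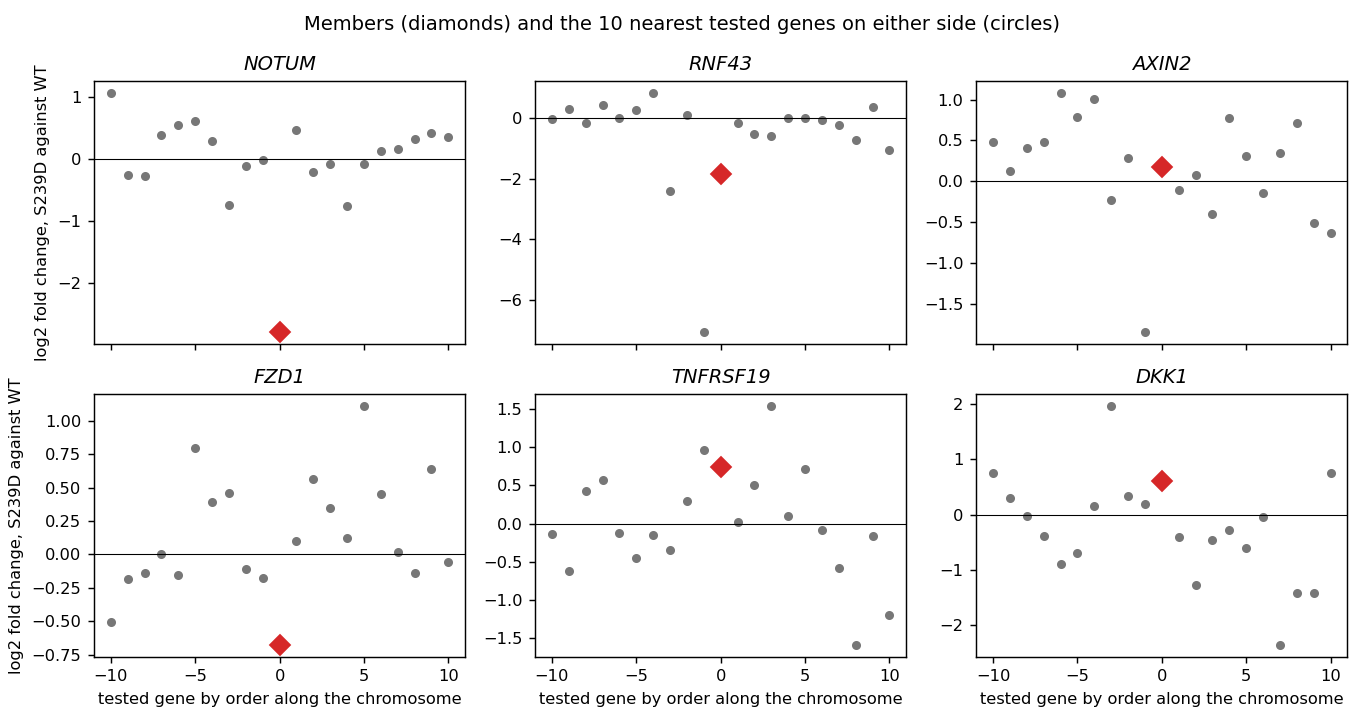
Log2 fold change of S239D against WT (vertical axes, scales differ) for 6 of the genes (red diamonds) and the 10 nearest tested genes on either side (grey circles), ordered along the chromosome. NOTUM at -2.78 and FZD1 at -0.68 lie below all 20 of their neighbours, and the point at -7.04 beside RNF43 is the fitted value of the overlapping gene without a symbol, which had 0 counts in S239D.

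Over the 9 libraries, the genes with patterns most like those of 3 members were listed among 12080 genes by Pearson's r of log2 CPM, as a description in which the distance of S239D from the other groups weighs most. For NOTUM they were ERRFI1 (r = 0.9958), GCLC (0.9942), SUDS3 (0.9924) and COL9A2 (0.9917). COL9A2 was at 8.11, 12 and 0.818 CPM in WT, S239A and S239D, close to NOTUM in level too. For RNF43 they were C1orf21 (0.9985), IDH2 (0.9975), NOVA2 (0.9968) and SEMA6D (0.9965). NOVA2 was at 14.6, 20.2 and 2.58 CPM. For TNFRSF19 they were ARRDC4 (0.9955), COQ9 (0.9938), MTARC1 (0.9937) and ZC3H8 (0.9878), with ARRDC4 at 35.3, 22.7 and 75.7 CPM.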

How the data were processed

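RNA was measured in 9 libraries of 22Rv1 cells, 3 each for WT, S239A and S239D, after poly-T selection and random hexamer priming, per the labels' protocols. The authors deposited RSEM expected counts per gene without scaling between libraries, and TPM scaled within each library. Trimmomatic 0.39 and RSEM come from the submitters' processing notes. Aligner, genome build, annotation release and strandedness were not stated in these sources. The deposited table gave all coordinates, and all 10 members overlapped the same gene in GENCODE 29.

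Expected counts (3.81% of values not whole) were rounded, filtered with filterByExpr (16213 genes), scaled by TMM and tested in edgeR 4.0.16 (R 4.3.3) with the quasi-likelihood F test, two-sided, in 1 fit of the 9 libraries by group. Adjustment was Benjamini-Hochberg over all genes, and calls were made at 0.05. The common dispersion corresponded to a biological coefficient of variation of 0.11. Rows lacking a symbol (22747, with 1.33% of counts) stayed in. The procedure was tested on simulated data. No 2 libraries were identical. Levels are CPM scaled by TMM.

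Members and lists were chosen with earlier results of these data known. The text names the 10 members, CTNNB1, PDCD4, from each role list up to 4 genes with the smallest adjusted p among those called in S239D against WT, overlapping neighbours, and the 4 genes most correlated with each of 3 members (mean of at least 5 CPM). A symbol stored as a date was looked up by its identifier. Promoters are from RefSeq.

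Alternatives were RLE factors, DESeq2 1.42.0, limma 3.58.1 on log2(TPM + 1) and log2(TPM + 0.1) where 3 libraries reached 1 TPM, no filter, at least 1 CPM in 6 libraries, the compared groups alone, a replicate block, each library left out, and the 2 libraries with the highest mitochondrial shares of their variants left out together. Deviations of same-numbered libraries from their group means correlated at 0.13, 0.327 and 0.148 between S239A and S239D. Those of unlike-numbered libraries ran from -0.282 to 0.216, the highest for S239A replicate 3 with S239D replicate 1. These values do not settle whether the numbers pair, and the labels name no shared batch. Between WT and the variants the correlations of same-numbered libraries were -0.0209 to 0.074.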

Additional observations from a re-analysis of the deposited data

Results flagged for a closer look

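NOTUM, RNF43 and TNFRSF19 drew attention because all 3 S239A libraries lay on one side of the WT libraries and all 3 S239D libraries on the other, an order that 876 of 16213 tested genes (5.4%) also had in either direction. Between S239D and S239A the log2 fold change was -3.33 for NOTUM, -2.1 for RNF43 and 1.31 for TNFRSF19. The 2 differences from WT share the WT libraries and S239D had a part in choosing the genes, so the difference was not tested here as evidence of opposite effects. Of the S239A differences from WT, those of NOTUM (0.54, edgeR adjusted p = 0.358), RNF43 (0.24, 0.449) and TNFRSF19 (-0.57, 0.131) did not pass the threshold.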

How the results depend on the processing

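The 5 members past the threshold in S239D against WT passed it with RLE factors, DESeq2, limma on TPM, both other filters, the 2-group fit, the replicate block and without S239A replicate 2 and S239D replicate 2, and only the DKK1 call was lost when single libraries were left out. As this contrast chose the members, these calls describe the settings and are not evidence about the genes. For S239A against WT 1 gene passed in the whole table with edgeR, 65 with DESeq2 (41 higher), 2 and 3 with limma on log2(TPM + 1) and log2(TPM + 0.1), 142 with no filter (95 higher), 6 with the replicate block, 1 to 8 with a library left out, and 874 (442 higher, 432 lower) without S239A replicate 2 and S239D replicate 2, where 8 pathway genes outside the members passed against 0. For S239D against WT 6708 genes passed with edgeR, 4351 and 4284 (2448 higher, 1836 lower) with limma, 5322 to 7533 with a library left out and 7275 with the block, and the pathway count of 59 was 36 with either limma fit. For S239D against S239A 7064 passed, 4697 (2784 higher, 1913 lower) and 4642 (2708 higher, 1934 lower) with limma, 5853 to 7182 with a library left out and 7610 with the block, and the pathway count of 54 was 35 with limma on log2(TPM + 1). The cause of these moves was not tested.

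Signs turned for differences near 0. With limma on the 2 TPM scales ZNRF3 in S239A against WT was 0.0083 and 0.00798, CTNNB1 was 0.163 and 0.164 in S239A against WT, 0.162 on both scales in S239D against WT and -0.00137 and -0.00139 in S239D against S239A, and LGR4 in S239D against WT was 0.115 and 0.126. CTNNB1 in S239D against WT was 0.000286 with RLE factors and 0.000325 with DESeq2, and in S239D against S239A it was -0.00202 in the 2-group fit. AXIN2 in S239D against S239A was -0.101 without S239A replicate 2 and S239D replicate 2. With a library left out, the values in S239A against WT were -0.124 to 0.07 for ZNRF3, -0.0317 to 0.324 for AXIN2, -0.0879 to 0.0408 for CTNNB1 and -0.13 to 0.063 for PDCD4. In S239D against WT they were -0.123 to 0.103 for LGR4 and -0.0702 to 0.036 for CTNNB1, and in S239D against S239A -0.15 to 0.207 for AXIN2 and -0.0577 to 0.083 for CTNNB1.

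The replicate block changed no call of a member in any of the 3 comparisons. Depth limits NKD1, LGR5 and, in S239D, NOTUM and WNT6, whose counts are small.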

Other observations

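The deposited counts and TPM of NOTUM in S239D replicate 2 stand in another ratio than in the other libraries. Its 14 counts came with 2.58 TPM, against 0.77 TPM for 9 counts in S239D replicate 1 and 0.81 TPM for 11 counts in S239D replicate 3. The transcript length implied by count over TPM, relative to the other genes of the library, was 0.43 there against 0.871 and 0.881 in the other S239D libraries. For NOTUM the largest of these values was 2.05 times the smallest, where the median of 14220 genes was 1.25 and 9.66% of them were above 2. For NKD1 it ran from 0.585 to 7.51, on 4 to 9 counts per library.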
